A study of Mus musculus with 27 samples.

Results

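Type I interferon-stimulated genes are the antiviral genes that cells switch on when interferon-α or interferon-β binds its receptor. The 52 genes described here were taken by symbol from a list of such genes, and each has 1 row in the table of 23995 genes. The list was chosen with earlier results of these data known, so shares of all tested genes beside its counts serve as description. All 52 reached a normalised count of at least 10 in at least 3 libraries, as did 14668 genes of the table, and were tested. Ifitm7 reached it only in stimulated wild-type libraries, so that a difference of these from the other groups follows from the filter. Its differences are given as values with no test. Counts of the 52 genes and of calls, medians and ranges include it. A call of it against the other groups follows from the filter. The genes are grouped by role: the IFIT family (Ifit1, Ifit2, Ifit3, Ifit3b, Ifit1bl1), the ISG15 system (Isg15, Usp18, Herc6, Trim25), the Mx GTPases (Mx1, Mx2) and the OAS family (Oas1a, Oas1g, Oas2, Oas3, Oasl1, Oasl2). Other antiviral enzymes are Isg20, Rsad2, Cmpk2 and Samd9l, and the sensors and kinases of nucleic acids are Ddx58, Ifih1, Dhx58, Zbp1, Eif2ak2, Znfx1 and Ddx60. Membrane proteins are Ifitm3, Ifitm7, Bst2 and Ms4a4c, and the ADP-ribosyltransferases and their partner are Parp9, Parp12, Parp14 and Dtx3l. The last 16 are Rtp4, Ifi44, Ifi35, Ifi27l2a, Xaf1, Phf11b, Phf11d, Trim30a, Trafd1, Sp100, Lgals3bp, Epsti1, Helz2, Tor3a, Nmi and Rnf213.

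The RNA came from microglia, the macrophages of the brain, shaken off mixed glial cultures of neonatal mouse cortex after about 14 days. CB2-/- cells (strain B6.Cg-Cnr2tm1Zim, made to lack the cannabinoid receptor CB2) and wild-type (WT) cells (C57BL/6J) received LPS (100 ng/ml) with interferon-γ (20 ng/ml), PolyI:C or CpG (1 nmol/ml) for 16 h, or no stimulus. There were 3 libraries in each group, except for 6 of unstimulated WT cells, and the question named by the study is whether CB2 takes part in activation through Toll-like receptors (TLR). Library numbers in the titles fall in 3 runs, of which the 2 lower ones were treated here as 1 series. The labels do not state that grouping. All stimulated WT libraries and unstimulated WT replicates 1 to 3 are numbered 3012 to 3023, while all CB2-/- libraries are numbered 2048 to 2059 and unstimulated WT replicates 4 to 6 are numbered 2186 to 2188. Responses in WT were therefore measured against replicates 1 to 3, and unstimulated CB2-/- cells were compared with replicates 4 to 6. Between stimulated genotypes, the difference of the 2 unstimulated WT sets was taken off. For stimulated cells, genotype and number series are the same split and cannot be told apart otherwise. Without stimulus, no run of numbers holds both genotypes, so genotype and run cannot be told apart there either. The series difference taken off rests on the same grouping.

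LPS is sensed by TLR4, double-stranded RNA such as PolyI:C by TLR3 and by the cytosolic helicase encoded by Ifih1, and unmethylated CpG DNA by TLR9. TLR3 and TLR4 act through the adaptor TRIF, kinases and IRF3 to induce interferon-β, which is secreted and binds the receptor IFNAR on the same and neighbouring cells. The receptor acts through a complex that includes STAT2 and IRF9 and binds the interferon-stimulated response element in front of the target genes. Interferon-γ acts through another receptor and shares many of these targets.

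The core of that response element was searched as GAAANNGAAA on both strands, where N is any base, from 250 bases before to 50 bases after each RefSeq gene start (build GRCm38.p6). RefSeq windows matched 41 of the 52 genes by symbol, and 17 of these (41.5%) held at least 1 match, against 1079 of all 27025 genes of the promoter table (3.99%). Over single windows the shares were 38.8% of 49 and 3.44% of 32851. A match is a run of letters and was not tested as a binding site. The windows of 6 genes are shown because they belong to the panel of 12 genes followed below and held a match. Capitals mark the matches, read on the strand of the gene, so that a match on the other strand appears as the reverse complement, and matches that overlap run together. The windows lie at chr19:34640639-34640938 on the plus strand (Ifit1), chr4:156200769-156201068 (Isg15), chr12:26456403-26456702 (Rsad2), chr2:62646206-62646505 (Ifih1), chr7:141010695-141010994 (Ifitm3) and chr8:71537423-71537722 (Bst2), the last 5 on the minus strand.
Ifit1: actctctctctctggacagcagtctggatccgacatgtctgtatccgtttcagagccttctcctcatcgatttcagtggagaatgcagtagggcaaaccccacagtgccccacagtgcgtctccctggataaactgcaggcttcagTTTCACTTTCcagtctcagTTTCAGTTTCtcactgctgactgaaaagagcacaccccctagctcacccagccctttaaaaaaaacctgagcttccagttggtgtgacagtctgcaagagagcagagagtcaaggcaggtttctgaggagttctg
Isg15: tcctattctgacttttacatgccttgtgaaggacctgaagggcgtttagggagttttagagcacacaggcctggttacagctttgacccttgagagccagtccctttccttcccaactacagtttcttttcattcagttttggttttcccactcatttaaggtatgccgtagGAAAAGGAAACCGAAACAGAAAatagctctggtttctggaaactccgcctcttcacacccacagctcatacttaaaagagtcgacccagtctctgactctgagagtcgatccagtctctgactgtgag
Rsad2: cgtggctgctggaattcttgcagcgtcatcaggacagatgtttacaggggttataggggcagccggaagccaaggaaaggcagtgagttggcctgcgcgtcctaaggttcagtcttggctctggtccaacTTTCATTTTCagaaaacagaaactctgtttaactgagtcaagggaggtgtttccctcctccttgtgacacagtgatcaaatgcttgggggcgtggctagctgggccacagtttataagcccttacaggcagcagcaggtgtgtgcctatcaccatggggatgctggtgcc
Ifih1: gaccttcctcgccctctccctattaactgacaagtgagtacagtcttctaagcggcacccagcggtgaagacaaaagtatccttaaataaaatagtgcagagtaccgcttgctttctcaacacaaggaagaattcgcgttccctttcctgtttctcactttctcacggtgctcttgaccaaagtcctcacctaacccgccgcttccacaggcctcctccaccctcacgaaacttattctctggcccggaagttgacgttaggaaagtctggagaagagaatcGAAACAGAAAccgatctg
Ifitm3: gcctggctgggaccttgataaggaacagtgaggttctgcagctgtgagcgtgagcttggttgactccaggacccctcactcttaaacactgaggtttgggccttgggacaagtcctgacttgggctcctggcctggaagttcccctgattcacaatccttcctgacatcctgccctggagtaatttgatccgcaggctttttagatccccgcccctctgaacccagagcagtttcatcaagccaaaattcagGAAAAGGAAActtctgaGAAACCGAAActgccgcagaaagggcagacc
Bst2: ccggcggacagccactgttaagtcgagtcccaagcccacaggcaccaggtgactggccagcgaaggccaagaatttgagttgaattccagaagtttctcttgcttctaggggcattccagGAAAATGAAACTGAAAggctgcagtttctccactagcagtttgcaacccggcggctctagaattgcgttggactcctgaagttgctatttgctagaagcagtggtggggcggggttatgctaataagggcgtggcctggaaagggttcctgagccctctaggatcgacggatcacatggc
Ifit1 held 2 matches, the first 94 bases upstream of the start, and Isg15 held 3 that overlap, the first 68 bases upstream. In Bst2 the first of 2 matches lay 120 bases upstream, and in Rsad2 the match lay 110 bases upstream. The matches of Ifih1 and Ifitm3 lay downstream of the start. The 3 other panel genes with a window, Ifit2, Oasl1 and Cmpk2, held none.

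Values are the authors' normalised counts, in which 1 unit is not 1 read and gene length is not taken off, so levels are compared between libraries and not between genes. Summed values ran from 6341300 to 14152000 per library, with 13628 to 20643 genes above 0. In 5 libraries a single gene, Gm19220, held over 10% of the sum (11.36% to 31.3%). Cnr2 itself, which encodes CB2, was measured at 317, 411 and 454 in unstimulated CB2-/- libraries, against 178, 230.0, 233, 172, 231 and 203 in unstimulated WT libraries. After PolyI:C it was 329, 412 and 368 in CB2-/- against 9.57, 7.32 and 16.2 in WT libraries. A value per gene does not show which exons were read, so the genotype rests on the labels, and CB2-/- below means libraries labelled so. Of 11 microglia and macrophage markers, all were present in the table, and their summed level was 46185 to 57366 in stimulated CB2-/- libraries, 61386 to 88300.2 in stimulated WT libraries, 70273 to 77117 in unstimulated CB2-/- libraries and 72514 to 153379 in unstimulated WT libraries. Nothing in the labels says whether libraries of a group came from separate animals or cultures, so every p-value given here refers to variation among these libraries alone, which may be technical.

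Without any stimulus, the antiviral genes were already higher in CB2-/- microglia. Of the 52 genes, 50 were higher in unstimulated CB2-/- than in unstimulated WT libraries and none lower, with a median log2 difference of 1.52 (range 0.41 to 5.47). Among all tested genes, 6.25% were higher and 3.65% lower, with a median of -0.05. A gene was called at a Benjamini-Hochberg adjusted p under 0.05 in a limma fit of log2(value + 1) over all 27 libraries. Each difference below is from that fit, on that scale, and understates the change of low genes. At an unadjusted p under 0.05, 51 of the 52 were higher. Wherever none of the 52 genes is given below for a direction, none passed an unadjusted p under 0.05 in it either, except 1 higher gene in the level after PolyI:C. In bulk RNA, fewer cells of a type and less RNA per cell cannot be told apart.

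Ifit1, whose product binds viral RNA that lacks host cap marks, had 1362, 1603 and 1637 normalised counts in unstimulated CB2-/- libraries, against 384, 187 and 236 in WT replicates 4 to 6 and 255, 282 and 226 in WT replicates 1 to 3. Every CB2-/- library lay above all 6 WT libraries, and the log2 difference was 2.57 (SE 0.17, adjusted p = 3.25e-10). Isg15, a ubiquitin-like protein attached to viral and host proteins, had 1563, 1938 and 1842 in unstimulated CB2-/- libraries, against 329, 161 and 269 in WT replicates 4 to 6, and 311, 252 and 197 in replicates 1 to 3. Its difference was 2.87 (SE 0.20, adjusted p = 5.42e-10), again without overlap. Rsad2, which encodes viperin, an enzyme that makes a chain-terminating nucleotide, had 2199, 2143 and 2186 in CB2-/- libraries and 697, 289 and 318 in WT replicates 4 to 6, a difference of 2.44 (SE 0.28, adjusted p = 1.34e-06). In replicates 1 to 3 Rsad2 stood lower, at 169, 193 and 148.

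Over the families, all 5 IFIT genes were higher in unstimulated CB2-/- cells, with a median of 2.93, and all 6 genes of the OAS family, whose synthetases make the messenger that activates RNase L, with a median of 1.50. The 4 genes of the ISG15 system were higher as well. Usp18, the protease that removes ISG15 and dampens signalling at IFNAR, was higher by 2.43, while Trim25, a ubiquitin ligase of the RIG-I pathway, differed least of the 50, by 0.49 (SE 0.10, adjusted p = 0.00132). All 7 sensors and kinases were higher, with a median of 1.33, among them Ifih1 by 1.19 and Zbp1, a sensor of Z-form nucleic acids, by 2.73. Both Mx genes were higher (Mx1 1.93, Mx2 1.72), which encode antiviral GTPases in wild mice and are known to be non-functional in C57BL/6 and most other laboratory strains, as were the 4 ADP-ribosyltransferase genes, with a median of 1.00. All 16 of the last group were higher, with a median of 1.47. Parp14 (0.79) stood next to Trim25 at the low end of the calls. All these calls are against WT replicates 4 to 6. In Oas2, Eif2ak2, Ddx60, Parp14 and Trafd1, WT replicates 1 to 3 overlapped with the CB2-/- libraries. Oas2 had 519, 437 and 407 in CB2-/- libraries and 683, 207 and 579 in WT replicates 1 to 3.

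The rest of the panel showed the same order, with CB2-/- libraries above all 6 WT libraries in each gene but Ifitm3. Usp18 had 1355, 1336 and 1250.3 in unstimulated CB2-/- libraries, against 336, 189 and 223 in WT replicates 4 to 6 and 247, 189 and 212 in replicates 1 to 3. Ifih1 had 1113, 915 and 797 in CB2-/- libraries, against 547, 350.0 and 353 in WT replicates 4 to 6 and 764, 351 and 622 in replicates 1 to 3. Bst2, whose product tetherin holds budding virions at the cell surface, had 4356, 4961 and 4525 in CB2-/- libraries, against 1671, 1989 and 1921 in WT replicates 4 to 6 and 1575, 1716 and 1516 in replicates 1 to 3. These 3 genes encode a brake, a sensor and an effector of the response. Zbp1 had 2001, 2145 and 2036 in CB2-/- libraries and 244 to 417 in the 6 WT libraries. Mx1 had 557, 578 and 548 in CB2-/- libraries and 118 to 368 in WT libraries. Oasl1, a member of the OAS family without synthetase activity, had 399, 405 and 512 in CB2-/- and 74.4 to 129 in WT libraries. The last pair belongs to the IFIT family and to nucleotide metabolism. Ifit2 had 2303, 1935 and 2059 in CB2-/- and 178 to 973 in WT libraries. Cmpk2, a mitochondrial nucleotide kinase, had 832, 755 and 735 in CB2-/- and 77.6 to 352 in WT libraries.

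Ifit1bl1 and Ms4a4c, both low in unstimulated WT cells, had the largest differences, followed by Ifit3b (3.05) and Ifit3 (2.93). Ifit1bl1, an IFIT-like gene, had 279, 365 and 331 in unstimulated CB2-/- libraries against 15.8, 0 and 22.1 in WT replicates 4 to 6, a difference of 5.47 (SE 0.78, adjusted p = 3.78e-05). Ms4a4c, a membrane protein of the MS4A family, had 393, 453 and 406 in CB2-/- libraries against 20.4, 8.34 and 17.1 in WT replicates 4 to 6, a difference of 4.76 (SE 0.33, adjusted p = 5.42e-10), while WT replicates 1 to 3 were higher, at 30.3, 79.6 and 72.4. Reads of related genes may be split between them, which was not measured. This may hold for Ifit3 and Ifit3b, Ifit1 and Ifit1bl1, Oas1a and Oas1g, Phf11b and Phf11d, and Ifitm3 and Ifitm7, so their values are uncertain.

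The 2 genes not called in unstimulated cells were both of the IFITM family, whose proteins hinder viral entry. Ifitm3 had 3831, 4318 and 4205 in unstimulated CB2-/- libraries and 2529, 3996 and 2952 in WT replicates 4 to 6, groups that overlap, and a difference of 0.41 (SE 0.18, adjusted p = 0.159). Ifitm7 stayed below 10 in all 9 unstimulated libraries. Of the 52 genes, 45 had every CB2-/- unstimulated library above all 6 WT libraries and none had every one below, while 8.56% of all tested genes were above and 8.22% below in that way. Leaving out any 1 of the 6 libraries of the comparison left 49 of the 50 genes called.

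Markers of other cell types also differed between these libraries. The 6 fibroblast and meningeal markers summed to 55.8 to 101 in unstimulated CB2-/- libraries, 685 to 2464 in WT replicates 4 to 6 and 1.71 to 2986 in WT replicates 1 to 3. The astrocyte markers (8 of 9 analysed) summed to 189 to 299 in CB2-/- libraries, 1498 to 2613 in WT replicates 4 to 6 and 205 to 979.9 in WT replicates 1 to 3. The monocyte and neutrophil markers (4 of 5) summed to 21.1 to 43.8 in CB2-/- libraries, 14.8 to 23.9 in WT replicates 4 to 6 and 30.0 to 45.2 in WT replicates 1 to 3. By library, the fibroblast sums were 62.1, 101 and 55.8 in CB2-/- replicates 1 to 3, 685, 842 and 2464 in WT replicates 4 to 6 and 1.71, 2986 and 388 in WT replicates 1 to 3. In the same order of libraries, the mean log2 level over the 52 genes was 10.04, 10.07 and 10.04 in CB2-/- libraries, 8.54, 7.96 and 8.15 in WT replicates 4 to 6 and 8.79, 8.40 and 8.66 in WT replicates 1 to 3. No marker of these lists was at 0 in every library, and their part in the result was not tested.

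**Figure D1:**
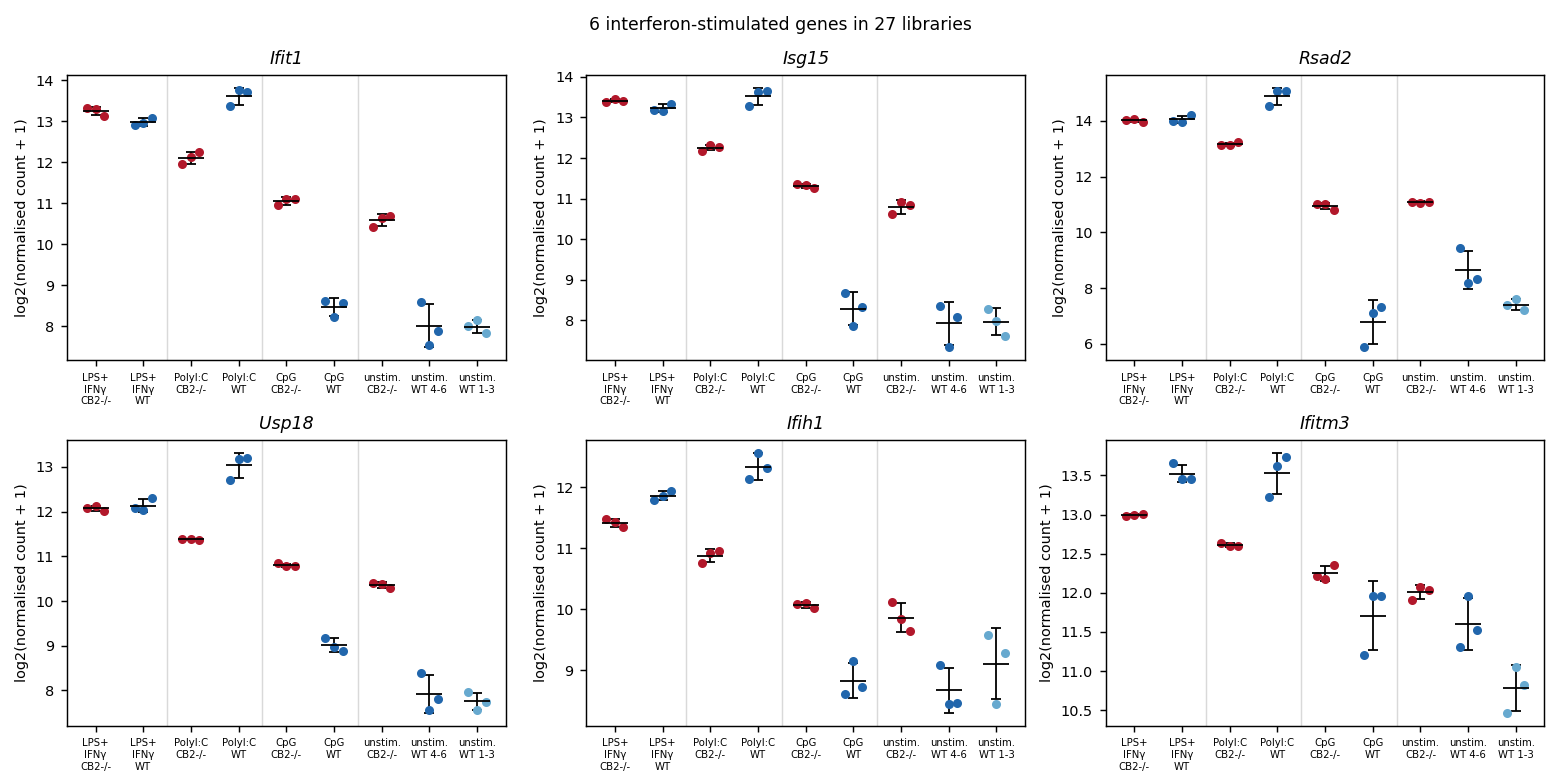
Level of 6 of the panel genes as log2(normalised count + 1) in all 27 libraries, by stimulus and genotype (red, labelled CB2-/-; dark blue, WT; light blue, unstimulated WT replicates 1 to 3). Points are libraries and bars the mean ± SD of 3; in unstimulated cells the CB2-/- points of Ifit1, Isg15, Rsad2 and Usp18 lie above all WT points, and after PolyI:C they lie below them.

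LPS with interferon-γ raised all or nearly all of the set in both genotypes, and raised most of it by more in WT cells. In WT microglia 52 of 52 genes rose (median log2 fold change 2.75, range 1.05 to 6.65), where 21.7% of all tested genes rose and 18% fell. In CB2-/- microglia 49 rose and none fell (median 1.48, range -0.09 to 3.30), where 12.8% of all tested genes rose and 10.9% fell. The largest rises in WT cells were those of Rsad2 (6.65), Ms4a4c (6.02), Oasl1 (5.74) and Isg15 (5.26). In CB2-/- cells they were those of Ifit1bl1 (3.30), Ms4a4c (3.01), Rsad2 (2.93) and Isg20, an RNA exonuclease (2.90). At the low end in WT cells were Ifi27l2a (1.05), Trim25 (1.16), the secreted glycoprotein gene Lgals3bp (1.36) and Eif2ak2, which encodes the kinase PKR (1.43).

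After LPS with interferon-γ, with the series difference taken off, the median difference of CB2-/- from WT levels was 0.27 over the set. Without stimulus the median was 1.52. In the deposited values the mean log2 level over the set after this stimulus was lower in every CB2-/- library than in every WT library. It was 11.58 to 11.65 in CB2-/- and 11.73 to 11.90 in WT libraries. Ifit1 reached 10284, 10059.7 and 9012 in stimulated CB2-/- libraries and 7623, 7907 and 8685 in stimulated WT libraries, log2 fold changes over unstimulated cells of 2.67 (SE 0.17, adjusted p = 2.25e-11) in CB2-/- and 4.99 (SE 0.17, adjusted p = 6.95e-17) in WT. Rsad2 reached 16788, 17079 and 15757 in CB2-/- and 16492, 15967 and 18762 in WT libraries, which overlap. Usp18 likewise overlapped, with 4306, 4486 and 4112 in CB2-/- and 4298, 4185 and 5032 in WT libraries. The differences in stimulated level, with the series difference taken off, were 0.26 for Ifit1 and -0.23 for Usp18, not called, beside unstimulated differences of 2.57 and 2.43. Isg15 had 10654, 11142 and 10913 in CB2-/- libraries and 9317, 9163 and 10369 in WT libraries, and Ifih1 2855, 2751 and 2618 in CB2-/- and 3539, 3707 and 3928 in WT libraries. Zbp1 had 3587, 3797 and 4055 in CB2-/- and 5485, 5487 and 5727 in WT libraries. In Ifit1 and Isg15 every CB2-/- library lay above the WT libraries, and in Ifih1 and Zbp1 every one lay below. Bst2 had 7481, 7844 and 7775 in CB2-/- and 11759, 11552 and 12908 in WT libraries. Ifitm3 had 8058, 8181 and 8200.2 in CB2-/- and 12876, 11262 and 11249 in WT libraries. Neither overlapped, with CB2-/- lower in both. Mx1 had 2967, 2948 and 2682 in CB2-/- and 4467, 4929 and 5808 in WT libraries, and Oasl1 2244, 2596 and 2208 in CB2-/- and 5118, 4713 and 4795 in WT libraries. Ifit2 had 13972, 13952 and 13134 in CB2-/- and 13064, 13776 and 15763 in WT libraries, and Cmpk2 5196, 5563 and 4995 in CB2-/- and 5724, 5791 and 7777 in WT libraries. Ifit2 overlapped, and the other 3 were lower in every CB2-/- library.

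The 3 genes that did not pass in CB2-/- cells were Ifit3b (1.25), Ifitm7 (0.15) and Ifi27l2a, which had 2029, 2058 and 1941 after the stimulus and 2122, 2294 and 2016 without it in CB2-/- libraries (-0.09, SE 0.10, adjusted p = 0.571).

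The fold change was smaller in CB2-/- than in WT cells for 44 of the 52 genes and larger for none, with a median difference of -1.42. Among all tested genes 8.36% had a smaller and 3.98% a larger fold change. The widest gaps were those of Rsad2 (-3.72, SE 0.39, adjusted p = 4.2e-07), Oasl1 (-3.31, SE 0.30, adjusted p = 6.2e-08), Zbp1 (-3.20, SE 0.35, adjusted p = 8.46e-07) and Ms4a4c (-3.01). Epsti1 rose by 1.46 in CB2-/- and 1.46 in WT cells, a difference of -0.0016 (SE 0.18, adjusted p = 0.996). The other 7 genes not called were Ifit3b, Ifit1bl1, Oas2, Ifitm7, Ddx60, Eif2ak2 and Trafd1, at -0.34 to -2.75. Leaving out each library in turn kept 39 of the 44 called.

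As levels after LPS with interferon-γ, with the series difference taken off, 5 genes were higher and 4 lower in CB2-/- than in WT libraries (median 0.27, against -0.06 over all tested genes), where 2.77% of all tested genes were higher and 5.5% lower. The higher genes were Ifit1bl1 (3.75), Ms4a4c (1.75), Epsti1 (1.23, SE 0.18, adjusted p = 8.08e-05), Ifit2 (1.23) and the helicase gene Znfx1 (0.49). The lower ones were Ifitm3 (-1.35, SE 0.25, adjusted p = 0.000993), Rsad2 (-1.28), Oasl1 (-1.14) and Bst2 (-0.86, SE 0.11, adjusted p = 2.19e-05). Before the series difference was taken off, the genotypes overlapped in Ms4a4c, Ifit2, Znfx1 and Rsad2. Rsad2 was then at 15757 to 17079 in CB2-/- and 15967 to 18762 in WT libraries. In the deposited values, 10 genes had every CB2-/- library above and 23 every one below the WT libraries, where 19.2% and 27.4% of all tested genes did. Fibroblast and meningeal markers summed to 60.9 to 78.3 in stimulated CB2-/- libraries and 527 to 838 in stimulated WT libraries, and their part in the result was not tested. These counts depend on the processing: 16 were higher and 2 lower with quantile scaling, none was higher without the series term, when Ifit2 (-0.05) and Ms4a4c (-0.14) changed sign, and 11 were lower in the batch-corrected table. Leaving out 1 library gave 1 to 13 higher: 13 without WT unstimulated replicate 4, 1 without replicate 5, 3 without replicate 6, and 2 without WT unstimulated replicate 3, WT LPS replicate 1 or 2 or any of the CB2-/- LPS replicates. Of the 9 genes, 3 stayed called throughout.

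PolyI:C raised every gene of the set in WT cells, and the median difference in fold change between the genotypes was -2.33, against -1.42 for LPS with interferon-γ and 0.45 for CpG. All 52 genes rose in WT microglia (median 3.22, range 0.98 to 8.53), where 21.2% of all tested genes rose and 19.9% fell. In CB2-/- microglia 44 rose and none fell (median 1.01, range -0.12 to 2.67), where 5.11% of all tested genes rose and 3.44% fell. The 8 genes that did not pass in CB2-/- cells were Ifit3b, Oasl2, Ifitm7, Zbp1, Trim30a, Rtp4, Ifi44 and Ifi27l2a, at -0.12 to 1.41. Without 1 library at a time, 38 of the 44 stayed called.

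Ifit1 had 3992, 4439.6 and 4829.9 after PolyI:C in CB2-/- libraries and 10611, 13808 and 13422 in WT libraries, fold changes of 1.53 (SE 0.17, adjusted p = 2.82e-06) in CB2-/- and 5.62 (SE 0.17, adjusted p = 7.36e-18) in WT cells on the log2 scale. Isg15 had 4647, 5072 and 4904 in CB2-/- and 9918, 12674 and 12937 in WT libraries, with fold changes of 1.46 (SE 0.20, adjusted p = 2.9e-05) in CB2-/- and 5.56 (SE 0.20, adjusted p = 1.21e-16) in WT cells. Rsad2 had 8904, 8945 and 9605 in CB2-/- and 23688, 34273 and 34273 in WT libraries, with fold changes of 2.07 (SE 0.28, adjusted p = 1.89e-05) in CB2-/- and 7.48 (SE 0.28, adjusted p = 1.7e-16) in WT cells. In these 3 genes every CB2-/- library lay below every WT library after PolyI:C, the reverse of the order without stimulus. Usp18 had 2664, 2691 and 2653 in CB2-/- and 6700.3, 9298 and 9463 in WT libraries, and Zbp1 2862, 3101 and 3023 in CB2-/- and 4856, 5685 and 6105 in WT libraries. Ifih1, the sensor MDA5 of long double-stranded RNA, had 1735, 1930.3 and 1994 in CB2-/- and 4488, 6054 and 5097 in WT libraries, and rose by 1.01 (SE 0.21, adjusted p = 0.00231) in CB2-/- and by 3.23 (SE 0.21, adjusted p = 4.41e-12) in WT cells.

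Of all 52 genes, Ifit1bl1 rose most in WT cells, with 8666, 9574 and 9913 after PolyI:C, against 12.1, 33.8 and 34.9 in unstimulated WT replicates 1 to 3, a log2 fold change of 8.53 (SE 0.78, adjusted p = 2.92e-09). In CB2-/- libraries it had 1922, 1973 and 2288 after PolyI:C, a change of 2.67 (SE 0.78, adjusted p = 0.034). Ms4a4c (7.15) and Ifitm7 (6.58) followed in WT cells. Ifitm7 had 0, 2.88 and 1.09 after PolyI:C in CB2-/- libraries and 268, 225 and 289 in WT libraries. Apart from WT cells given PolyI:C or CpG, no library had Ifitm7 above 17.4, so its fitted values depend on the 1 added before taking logs.

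The other panel genes followed the same order after PolyI:C. Mx1 had 2230.4, 2374 and 2201 in CB2-/- and 9877, 7209 and 7659.9 in WT libraries, and Oasl1 1409, 1266 and 1188 in CB2-/- and 4276, 5911 and 6034 in WT libraries. Ifit2 had 7215, 7674 and 7959 in CB2-/- and 17598, 19789 and 18669 in WT libraries, and Cmpk2 3554, 2976 and 3305 in CB2-/- and 9103, 13105 and 13038 in WT libraries. In none of these did the genotypes overlap. Ifitm3 had 6388, 6192 and 6180.0 in CB2-/- and 9595, 12568 and 13585 in WT libraries, and Bst2 7433, 7506 and 7136 in CB2-/- and 14368, 15141 and 15215 in WT libraries. At the low end of the response stood Ifi27l2a (0.98 in WT cells) and Trim25 (0.32, SE 0.10, adjusted p = 0.0383 in CB2-/- and 1.58 in WT cells).

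By family, the IFIT genes had a median log2 fold change of 1.53 in CB2-/- and 5.62 in WT cells, the ISG15 system 1.24 and 4.72, the Mx genes 1.81 and 4.86, and the OAS genes 1.07 and 3.14. The sensors and kinases had a median of 0.86 in CB2-/- and 2.75 in WT cells, and the ADP-ribosyltransferase genes 0.78 and 2.37. The 4 other antiviral enzymes had 1.95 in CB2-/- and 5.77 in WT cells, the membrane proteins 0.64 and 4.90, and the last 16 genes 0.74 and 2.90. The medians of the membrane proteins include Ifitm7, which is set by the filter. Beside it stood Ifitm3 (0.60 in CB2-/- and 2.74 in WT cells), Bst2 (0.68 and 3.22) and Ms4a4c (2.18 and 7.15).

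All 52 genes had a smaller PolyI:C fold change in CB2-/- than in WT cells (median difference -2.33), where 13.9% of all tested genes had a smaller and 10.8% a larger one, and all 52 stayed called without any 1 of the 12 libraries. The gap ran from -1.06 (SE 0.19, adjusted p = 0.000121) for Trafd1, a zinc-finger feedback regulator of TLR signalling, to -5.86 (SE 1.11, adjusted p = 0.000297) for Ifit1bl1, followed by Rsad2 (-5.41, SE 0.39, adjusted p = 3e-10) and Ms4a4c (-4.97). Ifitm7, counted among the 52 but set by the filter, had a value of -6.08. This difference is, by arithmetic, the difference in stimulated level minus the difference in unstimulated level.

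As levels after PolyI:C, with the series difference taken off, 28 genes were lower in CB2-/- than in WT libraries and none higher (median -0.75), where 10% of all tested genes were lower and 7.21% higher. The lowest were Ifitm7 (-5.57), Rsad2 (-2.97, SE 0.39, adjusted p = 6.33e-06), Isg20 (-2.19, SE 0.46, adjusted p = 0.00125) and Oasl1 (-2.14, SE 0.30, adjusted p = 1.64e-05). At the other end were Ddx60 (0.41), Ifi27l2a (0.33), Lgals3bp (0.11) and Ifit2 (-0.02), which did not pass the threshold. In the deposited values 51 genes had every CB2-/- library below the WT libraries and none every one above, where 21.5% and 19.4% of all tested genes did. The count of lower genes was 8 with quantile scaling, with 3 higher, 44 without the series term and 49 in the batch-corrected table. It was 18 to 30 when 1 library was left out, 18 without WT unstimulated replicate 4. Fibroblast and meningeal markers summed to 40.3, 102 and 73.3 in CB2-/- replicates 1 to 3 given PolyI:C, and to 43.6, 910.0 and 809 in WT replicates 1 to 3. In the same order, the mean log2 level over the 52 genes was 11.08, 11.14 and 11.14 in CB2-/- libraries and 12.34, 12.44 and 12.45 in WT libraries. The monocyte and neutrophil markers summed to 28.1 to 48.7 in CB2-/- and 235 to 356 in WT libraries given PolyI:C. S100a8 made up most of the WT sums (191, 289 and 310 in WT, 10.5, 39.0 and 25.3 in CB2-/- libraries). Ly6c2 was at 11.5 to 36.4 in WT and 0 to 3.33 in CB2-/- libraries, Ccr2 overlapped and S100a9 was at 0. The part of either list in the result was not tested.

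**Figure D2:**
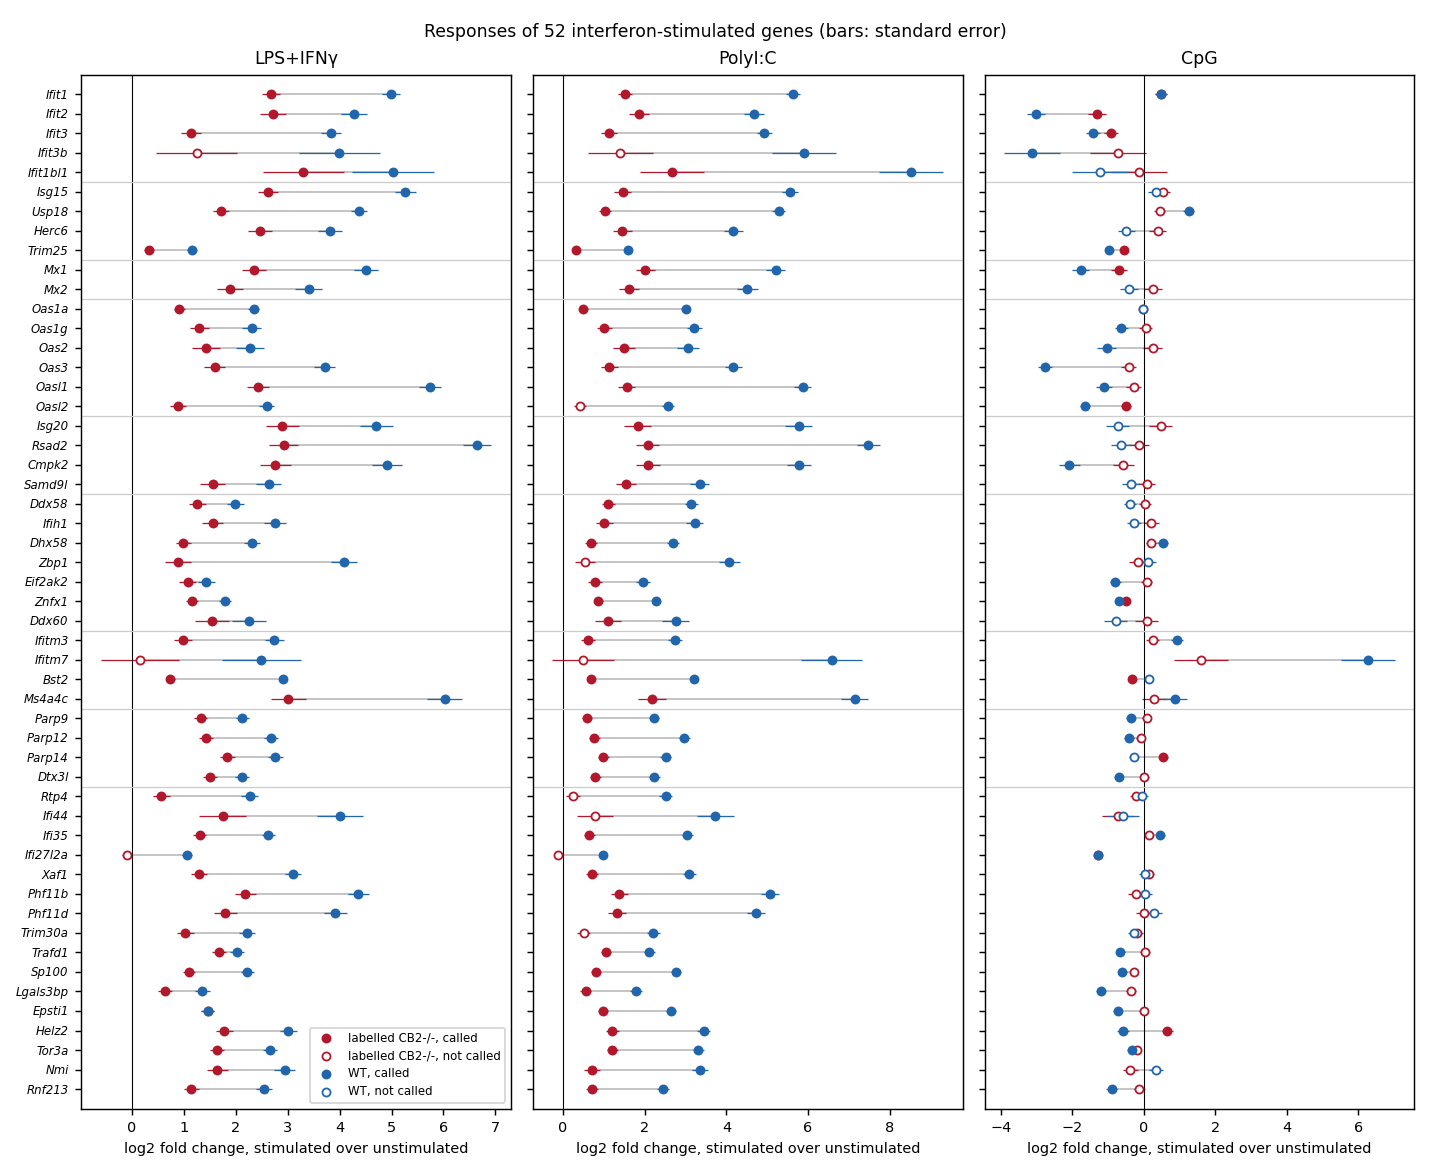
Log2 fold change of the 52 genes, stimulated over unstimulated, in CB2-/- (red) and WT (blue) microglia after LPS+IFNγ, PolyI:C and CpG, with standard errors; filled points passed an adjusted p of 0.05 and horizontal lines part the role groups. Blue points lie right of red ones for every gene after PolyI:C (medians 1.01 in CB2-/- and 3.22 in WT). After CpG the red points scatter about 0 (median -0.01) and the blue ones lie mostly left of it (median -0.54).

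CpG raised few of the genes, and in WT cells more of them fell than rose. In WT microglia 7 genes rose and 24 fell (median -0.54, against -0.09 over all tested genes), where 16.5% of all tested genes rose and 19.6% fell. The 7 that rose were Ifitm7 (6.27), Usp18 (1.26, SE 0.15, adjusted p = 4.91e-07), Ifitm3 (0.93, SE 0.18, adjusted p = 0.000204), Ms4a4c (0.88), Dhx58, which encodes the RIG-I-like protein LGP2 (0.52), Ifit1 (0.48) and Ifi35 (0.45). Ifitm7 is counted among the 7, though its rise follows from the filter. Without WT CpG replicate 1 only 4 rose, and 22 of the 31 calls held without any 1 library. The genes that fell most were Ifit3b (-3.12), Ifit2 (-3.01, SE 0.25, adjusted p = 8.82e-10), Oas3 (-2.76, SE 0.20, adjusted p = 1.13e-10) and Cmpk2 (-2.09, SE 0.30, adjusted p = 4.45e-06). Of the 6 OAS genes 5 fell, all but Oas1a (-0.02).

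Ifit2 had 938, 808 and 775 after CpG in CB2-/- libraries and 58.7, 109 and 111 in WT libraries. Without stimulus it had 2303, 1935 and 2059 in CB2-/- and 973, 581 and 682 in WT replicates 1 to 3, so that it fell in both genotypes, by 1.32 (log2) in CB2-/- and by 3.01 in WT cells. Oas3 had 1393, 1313 and 1379 after CpG in CB2-/- and 63, 31.9 and 66.3 in WT libraries, and fell in WT cells (-0.43 in CB2-/- cells, not called). In Ifitm7 the genotypes stood the other way round, with 8.17, 1.63 and 2.43 in CB2-/- and 249.8, 162 and 227 in WT libraries. After CpG it was the 1 gene of the set with every CB2-/- library below the WT libraries.

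Through the rest of the panel, values after CpG were higher in CB2-/- libraries. Ifit1 had 1983, 2209 and 2209 in CB2-/- and 391, 299 and 378 in WT libraries, Isg15 2606, 2599 and 2462 in CB2-/- and 407, 233 and 322 in WT libraries, and Rsad2 2082, 2062 and 1798 in CB2-/- and 57.5, 138 and 159 in WT libraries. Usp18 had 1832, 1755 and 1775 in CB2-/- and 579, 503 and 473 in WT libraries, and Cmpk2 576, 495 and 485 in CB2-/- and 42.2, 58.9 and 46.5 in WT libraries. The CpG fold change of Usp18 was 0.44 (SE 0.15, adjusted p = 0.0567) in CB2-/- cells, not called, and 1.26 in WT cells. Mx1 had 353, 357 and 326 in CB2-/- and 70.7, 59.4 and 61.5 in WT libraries, and Oasl1 347, 381 and 344 in CB2-/- and 25.4, 57.5 and 47.3 in WT libraries. Zbp1 had 1777, 1826 and 1861 in CB2-/- and 629.6, 191 and 359 in WT libraries, and Ifih1 1089.7, 1102 and 1035 in CB2-/- and 391, 569 and 422 in WT libraries. The 2 membrane proteins were closer. Ifitm3 had 4769.8, 4631 and 5259 in CB2-/- and 2354, 3978 and 3991 in WT libraries, and Bst2 3784, 3617 and 3598 in CB2-/- and 1686, 1791 and 1862 in WT libraries.

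In CB2-/- microglia 2 genes rose with CpG and 8 fell (median -0.01, against 0 over all tested genes), where 6.82% of all tested genes rose and 7.44% fell. With library weights 8 rose, and 5 rose in the batch-corrected table. Those that rose were Helz2, a helicase (0.66, SE 0.16, adjusted p = 0.005), and Parp14 (0.55, SE 0.14, adjusted p = 0.00647). Ifit2 fell most (-1.32, SE 0.25, adjusted p = 0.000445), followed by Ifi27l2a (-1.28, SE 0.10, adjusted p = 4.06e-10), Ifit3 (-0.92) and Mx1 (-0.70). The CpG fold change was larger in CB2-/- than in WT cells for 15 genes and smaller for 3 (median difference 0.45), where 6.11% of all tested genes had a larger and 5.66% a smaller one. Oas3 (2.33, SE 0.29, adjusted p = 7.01e-06), Ifit2 (1.69, SE 0.35, adjusted p = 0.00221) and Cmpk2 (1.51, SE 0.42, adjusted p = 0.0193) were among the larger, and Ifitm7 (-4.66), Usp18 (-0.82, SE 0.22, adjusted p = 0.015) and Bst2 (-0.48, SE 0.11, adjusted p = 0.00656) were the smaller. Ifitm7 is counted among the 3 through the filter. Ifit3b had a difference of 2.40 (SE 1.11, adjusted p = 0.178) and was not called. The count of 15 was 9 without WT unstimulated replicate 1, 6 without the series term and 25 with library weights.

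As levels after CpG, 50 genes were higher in CB2-/- than in WT libraries and 1 lower (median 2.01), where 6.99% of all tested genes were higher and 5.11% lower, and all 51 calls held without any 1 library. The highest were Ifit1bl1 (6.57, SE 1.11, adjusted p = 0.000189), Ifit3b (5.44, SE 1.11, adjusted p = 0.00149), Oas3 (4.93, SE 0.29, adjusted p = 4.91e-11) and Ifit2 (4.49, SE 0.35, adjusted p = 5.5e-09). Ifitm7 was the 1 lower gene (-4.15), a difference that follows from the filter. Ifitm3, higher in every CB2-/- library before the series difference was taken off, did not pass after it (-0.27, SE 0.25, adjusted p = 0.539). In the deposited values 51 genes had every CB2-/- library above the WT libraries, where 20.3% of all tested genes did and 17.8% had every one below. Fibroblast and meningeal markers summed to 25.03, 47.8 and 60.1 in CB2-/- replicates 1 to 3 given CpG, and to 12.1, 1222 and 2139.8 in WT replicates 1 to 3. In the same order, the mean log2 level over the 52 genes was 10.01, 9.97 and 9.92 in CB2-/- libraries and 8.06, 8.19 and 8.27 in WT libraries. Monocyte and neutrophil markers summed to 44.1 to 82.2 in CB2-/- and 264 to 379 in WT libraries given CpG. The part of either list in the result was not tested.

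**Figure D3:**
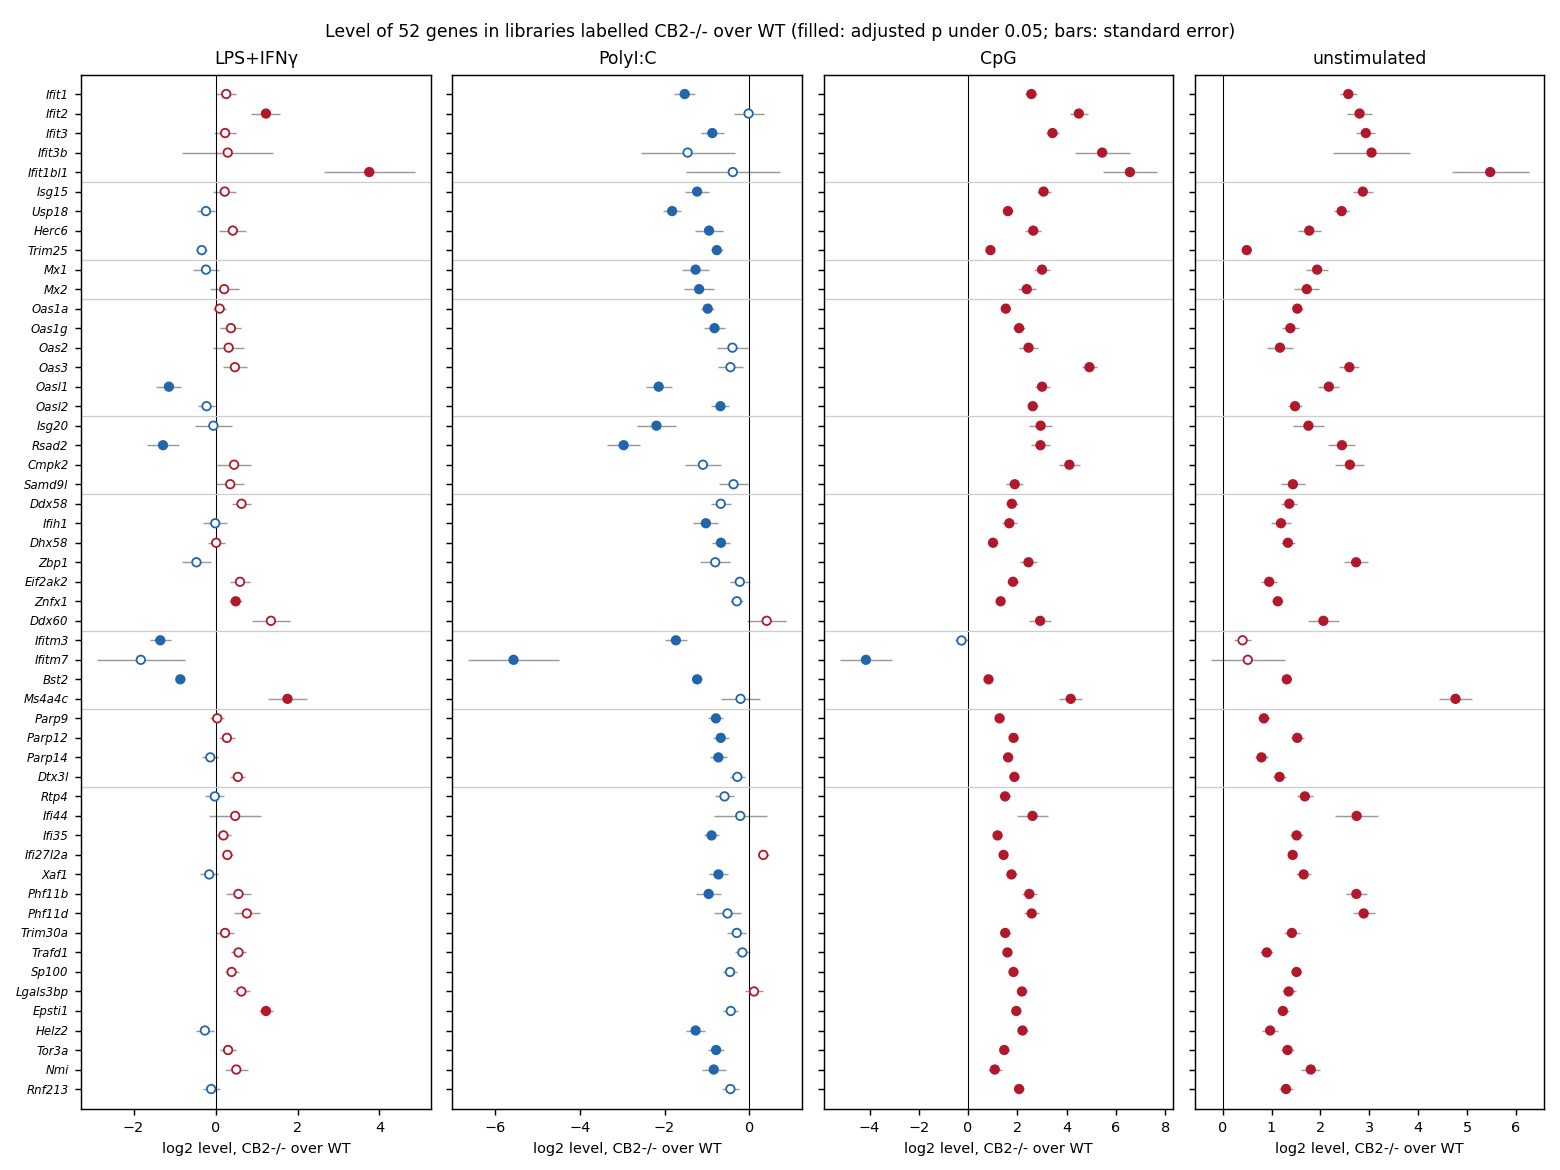
Difference in level of the 52 genes between libraries labelled CB2-/- and WT libraries (log2, CB2-/- over WT, with standard errors) after each stimulus, with the number series difference taken off, and without stimulus; filled points passed an adjusted p of 0.05. The points lie right of 0 in unstimulated and CpG-treated cells (50 of 52 genes higher in each), about 0 after LPS+IFNγ (5 higher, 4 lower) and mostly left of 0 after PolyI:C (28 lower).

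Set against each other, PolyI:C gave higher levels than LPS with interferon-γ in WT cells and lower ones in CB2-/- cells. In WT microglia 21 genes were higher after PolyI:C and none lower (median 0.47), where 3.91% of all tested genes were higher and 5.35% lower. In CB2-/- microglia 23 were lower and none higher (median -0.48), where 6.95% were lower and 4.96% higher. The highest in WT cells were Ifitm7 (4.08), Ifit1bl1 (3.50) and Ifit3b (1.91), and the lowest in CB2-/- cells Isg15 (-1.16), Ifit1 and Isg20 (-1.07). Ifit1 differed by -1.15 (SE 0.17, adjusted p = 4.37e-05) in CB2-/- and by 0.64 (SE 0.17, adjusted p = 0.019) in WT cells. With quantile scaling 8 were lower and 1 higher in CB2-/- cells, where Bst2 turned to 0.38, and with library weights 37 were higher in WT cells. Leaving out WT LPS replicate 1 or 2 or WT PolyI:C replicate 2 gave 13 higher in WT cells, and leaving out CB2-/- LPS replicate 2 gave 14 lower in CB2-/- cells. The difference between the genotypes in this contrast, added after the values were seen, was negative for 37 genes and positive for none among those called (median -1.003), where 4.62% of all tested genes were called in each direction. Ifit1bl1 (-4.14, SE 1.11, adjusted p = 0.0179), Ifitm7 (-3.74) and Isg20 (-2.14, SE 0.46, adjusted p = 0.00289) had the widest gaps.

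Against CpG, PolyI:C gave higher levels in both genotypes: 47 genes were higher and none lower in CB2-/- cells (median 1.02), where 6.39% of all tested genes were higher and 5.56% lower. In WT cells 51 were higher and none lower (median 3.60), where 17.6% were higher and 12.5% lower. The largest differences were those of Ifit1bl1 (9.76), Ifit3b (9.03) and Rsad2 (8.11) in WT cells and of Ifit2 (3.18), Ifit1bl1 (2.80) and Mx1 (2.71) in CB2-/- cells. The exception in WT cells was Ifitm7, at 268, 225 and 289 after PolyI:C and 249.8, 162 and 227 after CpG (0.31). Of the 9 sets of libraries (8 groups, with unstimulated WT split in 2), WT cells given PolyI:C had the highest mean log2 level for 44 genes and WT cells given LPS with interferon-γ for 8. The lowest was WT cells given CpG for 23 genes, WT replicates 4 to 6 for 23 and WT replicates 1 to 3 for 6, so no CB2-/- group was at either end for any gene.

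**Figure D4:**
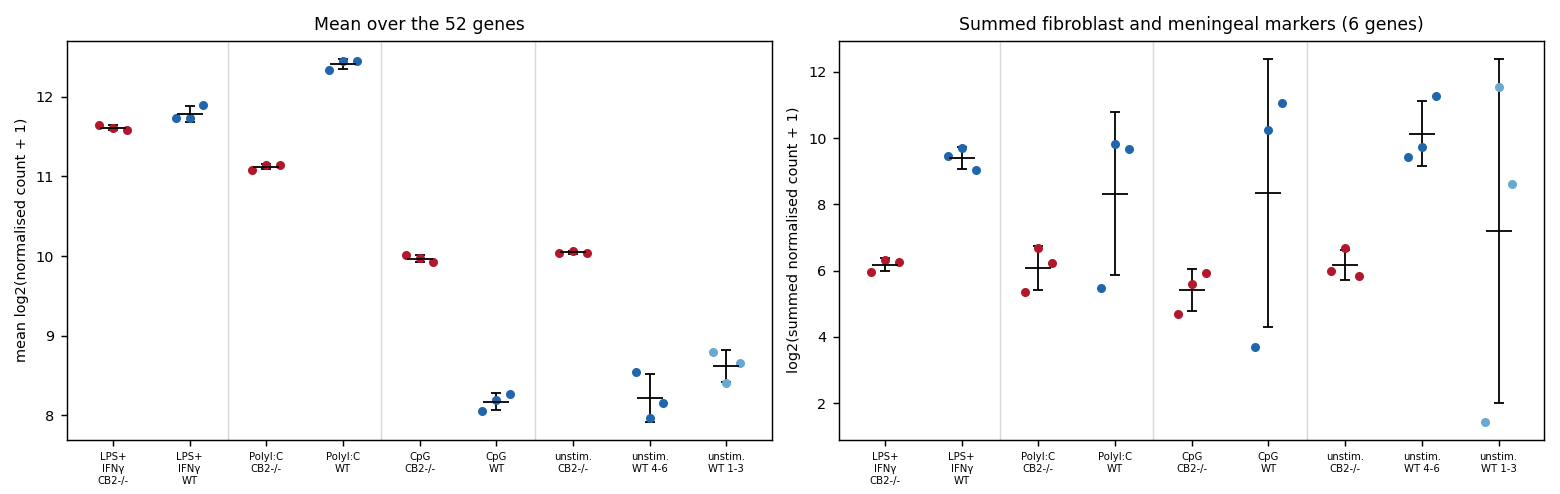
Left, mean log2(normalised count + 1) over the 52 genes in each library; right, log2 of the summed level of 6 fibroblast and meningeal markers plus 1. Points are libraries, bars the mean ± SD of 3, red labelled CB2-/- and blue WT; the member means of CB2-/- and WT libraries do not overlap in any of the 4 conditions, while the marker sums run from 25.03 to 102 in CB2-/- and from 1.71 to 2986 in WT libraries.

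The genes upstream of the set were followed as a list of ligand, receptors, signalling proteins and sensors. Ifnb1, the interferon-β gene, was the ligand analysed. It had 29.9, 20.7 and 21 after LPS with interferon-γ in CB2-/- libraries and 31.7, 32.6 and 39.5 in WT libraries. Ifnb1 passed the filter on low values only through the libraries given this stimulus. Its rise there follows from the filter and is given as values with no test. After PolyI:C it had 0, 2.43 and 14.8 in CB2-/- and 0, 11.6 and 5.8 in WT libraries and did not pass in either. In unstimulated cells it was at 0.746, 0.96 and 0 in CB2-/- libraries and at 0, 0, 2.95, 0, 0 and 0 in the 6 WT libraries, too low to compare. The receptor genes Ifnar1 (0.12, SE 0.09, adjusted p = 0.459) and Ifnar2 (0.29, SE 0.11, adjusted p = 0.0939) were not called between unstimulated genotypes.

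Of 7 signalling genes (Jak1, Tyk2, Stat2, Irf9, Irf7, Irf3, Socs1), 4 were higher in unstimulated CB2-/- than WT libraries and none lower, with a median of 0.93, where 6.25% of all tested genes were higher and 3.65% lower. Irf7, a factor that amplifies interferon production, had 6737, 7871 and 7330.2 in unstimulated CB2-/- libraries, against 1809, 1420.3 and 1582 in WT replicates 4 to 6 and 2459.9, 2630.4 and 2350.1 in replicates 1 to 3. It differed by 2.19 (SE 0.09, adjusted p = 1.26e-13). Stat2 differed by 1.15 (SE 0.22, adjusted p = 0.00125), Irf9 by 0.93 (SE 0.12, adjusted p = 4.64e-06) and Socs1, a feedback inhibitor of the receptor kinases, by 2.31 (SE 0.65, adjusted p = 0.0243). Stat2 had 1649.6, 1721 and 1747 in unstimulated CB2-/- libraries, against 939, 634 and 764 in WT replicates 4 to 6 and 1996, 941 and 1569.7 in replicates 1 to 3, which overlap with CB2-/-. LPS with interferon-γ raised 5 of the 7 in each genotype, where 12.8% of all tested genes rose in CB2-/- and 21.7% in WT cells. PolyI:C raised 4 in CB2-/- and 6 in WT cells, where 5.11% of all tested genes rose in CB2-/- and 21.2% in WT cells. The response was smaller in CB2-/- cells for 3 of the 7 after either stimulus: Irf9, Irf7 and Socs1 after LPS with interferon-γ, and Stat2, Irf9 and Irf7 after PolyI:C, where 8.36% and 13.9% of all tested genes had a smaller response. With CpG in WT cells 4 of the 7 fell, Irf7 by 1.03 and Stat2 by 1.50, where 19.6% of all tested genes fell.

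Among the 11 sensors and adaptors listed (Tlr3, Ticam1, Tlr4, Ticam2, Tlr9, Myd88, Mavs, Tbk1, Ikbke, Tmem173, Mb21d1), 3 were higher and 2 lower in unstimulated CB2-/- cells, beside the 6.25% and 3.65% of all tested genes. Tlr3 (1.04, SE 0.21, adjusted p = 0.00199), the DNA sensor gene Mb21d1 (0.94) and the adaptor gene Myd88 (0.52) were higher, and Tlr9 (-0.66, SE 0.21, adjusted p = 0.0485) and Ticam2, an adaptor of TLR4 (-0.69), were lower. Mb21d1 had 149, 131 and 159 in unstimulated CB2-/- libraries, against 95.9, 71.9 and 61.9 in WT replicates 4 to 6 and 136, 100.3 and 149.8 in replicates 1 to 3. Myd88 had 572, 671 and 566 in CB2-/- libraries, against 376, 451 and 428 in WT replicates 4 to 6 and 585, 571 and 521 in replicates 1 to 3. In both genes WT replicates 1 to 3 overlapped with the CB2-/- libraries. Tlr3 had 552, 364 and 492 in CB2-/- libraries, against 292, 277 and 138 in WT replicates 4 to 6 and 361, 336 and 317 in replicates 1 to 3. Tlr9 had 180, 155 and 133 in unstimulated CB2-/- libraries, against 173, 315 and 270 in WT replicates 4 to 6, groups that overlap. Ticam2 had 159, 166 and 190 in CB2-/- libraries, against 264, 283 and 286 in WT replicates 4 to 6. WT replicates 1 to 3 had 183, 243 and 203 of Ticam2, which overlap with CB2-/-, and 359, 439 and 436 of Tlr9. Tlr9 had 156, 169 and 167 after CpG in CB2-/- libraries and 65.4, 49.4 and 47.8 in WT libraries, and fell in WT cells (-2.91, SE 0.21, adjusted p = 8.22e-11). Tlr3 rose with PolyI:C, by 1.03 in CB2-/- and 2.64 in WT cells.

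**Figure D5:**
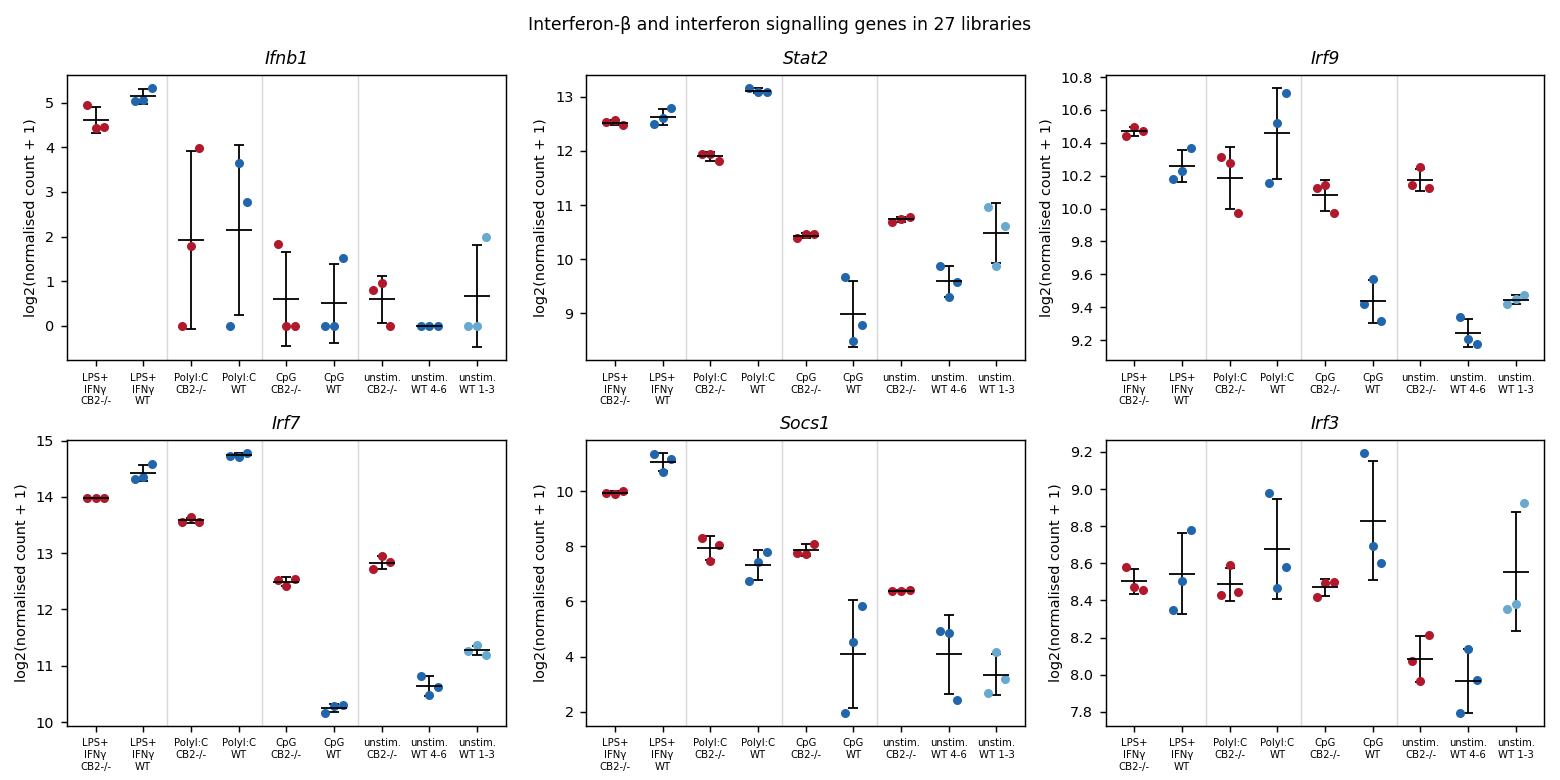
Level of the interferon-β gene and 5 interferon signalling genes as log2(normalised count + 1) in 27 libraries, in the same order and colours as the plot of panel genes, with the mean ± SD of 3. Stat2, Irf9, Irf7 and Socs1 are higher in unstimulated CB2-/- cells than in WT replicates 4 to 6. Ifnb1 had 20.7 to 29.9 in CB2-/- and 31.7 to 39.5 in WT libraries after LPS+IFNγ, the libraries through which it passed the filter.

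The gene whose log2 level followed that of Ifit1 most closely over the 27 libraries was Isg15 (Pearson r = 0.997), followed by H2-T22 (0.990), Phf11a (0.988), Ifi211 (0.988) and Phf11b (0.988). Isg15 and Phf11b belong to the set and the other 3 do not. All points share library and normalisation, so the values are a description.

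The 2 sets of unstimulated WT libraries differed as well. In replicates 4 to 6, 3 genes were higher and 15 lower than in replicates 1 to 3 (median -0.43), where 6.33% of all tested genes were higher and 5.66% lower. Rsad2 (1.24, SE 0.28, adjusted p = 0.0035), Ifitm3 (0.82, SE 0.18, adjusted p = 0.00289) and Trim25 (0.51, SE 0.10, adjusted p = 0.000743) were the higher, and Ms4a4c (-1.89, SE 0.33, adjusted p = 0.00035) and Ifit2 (-1.28, SE 0.25, adjusted p = 0.00105) among the lower. The count of lower genes was 10 to 26 without 1 library, 24 without replicate 2 and 26 without replicate 4; 10 of the 18 calls held in every such fit. Ifit1 did not differ past the threshold (0.02, SE 0.17, adjusted p = 0.971).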

How the data were processed

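RNA-seq libraries of cultured microglia (27 libraries, 75 bp single-end reads) were analysed from the deposited table of 23995 genes, whose values the authors had normalised, so that each is a signal (a normalised count that is not a whole number) and not a raw count. A second deposited table holds a batch-corrected score on a log2 scale and served only as an alternative. Per the submitters' processing notes the tools were CASAVA 1.8, kallisto and DESeq2. The genome build and annotation of the counting were not given in the sources used here. Per the labels' protocols 2 kinds of library preparation were used, and which library had which is not stated. Raw read depth is unknown, so no counting interval is given, and the summed normalised values describe the libraries.

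The tests used limma 3.58.1 in R 4.3.3 on log2(value + 1), over genes with at least 10 in at least 3 libraries, with 9 sets of libraries as coefficients (8 groups, unstimulated WT split by number series), 18 residual degrees of freedom, empirical Bayes with a trend, two-sided tests and Benjamini-Hochberg adjustment over all 14668 tested genes in each of 18 comparisons and 1 added after the values were seen. Calls are at an adjusted p under 0.05. A count model could not be used on these values. The code was tested on simulated data. The members and lists were chosen with earlier results of these data known. Named members are a panel of 12, the 4 highest and 4 lowest in each comparison, and the members of counts of 5 or fewer; others named as examples of a role, or as exceptions to a count, were chosen after their values were seen. Gene IDs matched GENCODE M21 (GRCm38) for 23933 of 23995 genes, and promoter windows came from RefSeq (GRCm38.p6). Alternatives were a pseudocount of 10, no filter, quantile scaling, no series term, the batch-corrected table, library weights and leaving out libraries. Python 3.11.15 with pandas 2.3.3 and matplotlib 3.10.9 made the summaries and plots. A further listed signalling gene is not reported here.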

Additional observations from a re-analysis of the deposited data

Results flagged for a closer look

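Single libraries stood apart from the other 5 of unstimulated WT cells in 2 genes, where chance gives about 1 such case in 20 groups. Ifit1bl1 was at 0 in WT unstimulated replicate 5, against 12.1 to 34.9 in the others, and Ifitm7 was at 8.71 in replicate 1, against 0 to 1.09.

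For the named genes, the response differed between the genotypes by a test of the difference itself (limma, adjusted p under 0.05), as CB2-/- minus WT on the log2 scale. After LPS with interferon-γ these were Ifit1 (-2.31), Ifit2 (-1.57), Isg15 (-2.64), Rsad2 (-3.72), Mx1 (-2.17), Oasl1 (-3.31), Usp18 (-2.67), Cmpk2 (-2.15), Zbp1 (-3.20), Ifih1 (-1.20), Ifitm3 (-1.76), Bst2 (-2.17), Dtx3l (-0.62) and Ms4a4c (-3.01). After PolyI:C they were Ifit1 (-4.09), Ifit2 (-2.82), Isg15 (-4.10), Rsad2 (-5.41), Mx1 (-3.20), Oasl1 (-4.31), Usp18 (-4.26), Cmpk2 (-3.70), Zbp1 (-3.53), Ifih1 (-2.22), Ifitm3 (-2.14), Bst2 (-2.54), Trafd1 (-1.06), Ifi27l2a (-1.10), Eif2ak2 (-1.18), Lgals3bp (-1.24), Ms4a4c (-4.97), Ifit1bl1 (-5.86) and Ifitm7 (-6.08). After CpG they were Ifit2 (1.69), Mx1 (1.07), Usp18 (-0.82), Cmpk2 (1.51), Bst2 (-0.48), Oas3 (2.33) and Ifitm7 (-4.66). In the contrast of PolyI:C with LPS and interferon-γ they were Ifit1 (-1.78), Ifit2 (-1.25), Isg15 (-1.45), Rsad2 (-1.69), Mx1 (-1.03), Oasl1 (-1.0), Usp18 (-1.59), Cmpk2 (-1.55), Ifih1 (-1.02), Bst2 (-0.37), Ms4a4c (-1.96), Isg20 (-2.14), Ifitm7 (-3.74) and Ifit1bl1 (-4.14). The values of Ifitm7, which passed the filter only through stimulated WT libraries, follow from that filter and are given as values with no test. All differences in the responses to LPS with interferon-γ and to PolyI:C are negative, while those after CpG are of both signs.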

How the results depend on the processing

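In every setting run, no gene of the set was called lower in unstimulated CB2-/- cells, and 35 to 51 were called higher, the lowest without the 5 libraries in which 1 gene held over 10%. Smaller responses in CB2-/- cells were called for 34 to 50 genes after LPS with interferon-γ and for 49 to 52 after PolyI:C. The cause of the changes below was not tested.

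Quantile scaling moved the median of all genes in the level after LPS with interferon-γ by 0.11 (log2). It gave 16 genes higher and 2 lower there, 3 higher and 8 lower in the level after PolyI:C, 1 lower in the response of CB2-/- cells to LPS with interferon-γ, 1 higher and 8 lower for PolyI:C against LPS in CB2-/- cells, and 20 lower for the added difference of that contrast. Trim25 in the response of CB2-/- cells to LPS turned to -0.16 and Bst2 for PolyI:C against LPS in CB2-/- cells to 0.38. Without the series term, 6 genes had a larger CpG response in CB2-/- cells, 0 were higher in the LPS level, 44 were lower in the PolyI:C level and 13 were higher for PolyI:C against LPS in WT cells, with Ifit2 (-0.049) and Ms4a4c (-0.14) reversed in the LPS level. The batch-corrected table gave 5 risen with CpG in CB2-/- cells, 11 lower in the LPS level, 49 lower in the PolyI:C level and 1 lower for PolyI:C against LPS in WT cells, and turned Ifitm3 in the CpG level to 0.36. Library weights gave 8 risen with CpG in CB2-/- cells, 25 larger CpG responses, 18 higher in the LPS level, 1 higher in the PolyI:C level, 37 higher and 1 lower for PolyI:C against LPS in WT cells, and 5 higher and 30 lower between the WT sets. Without the 5 libraries above, the LPS level had 1 higher and 2 lower, the CpG level 0 lower, PolyI:C against LPS in CB2-/- cells 14 lower, and the WT sets 2 lower.

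Leaving out 1 library at a time gave 4 to 8 risen with CpG in WT cells, 9 to 18 larger CpG responses, 1 to 13 higher in the LPS level, 18 to 30 lower in the PolyI:C level, 13 to 18 higher in WT and 14 to 17 lower in CB2-/- cells for PolyI:C against LPS, and 10 to 26 lower between the WT sets. Of 2742 values of named genes in those fits, 2549 kept their direction and call, 169 lost the call, 24 gained it and 0 reversed. No paired analysis was possible because the titles give no replicate numbers shared between groups. Precision is limited by 3 libraries a group and, for Ifitm7, Ifit3b and Ifnb1, by levels near 0.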
